A study of Mus musculus with 24 samples.

Results

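Collagen chains are the protein strands that wind in sets of 3 into the triple helices of the extracellular matrix. The 44 genes described here are the symbols in the deposited expression table that consist of Col, a type number, the letter a and a chain number, out of 32544 symbols in all. They cover 27 collagen types on 15 chromosomes, and 42 of them passed a filter that asked for more than 1 CPM (counts per 1000000) in at least 3 mice on the deposited scale; 16121 genes of the whole table passed it. The rule used the name of the gene and no measured value, though it was chosen with earlier results of these data known. Col2a1, the fibrillar chain of cartilage, and Col19a1 did not pass and were not tested. Col6a5 and Col13a1 exceeded 1 CPM in 3 mice each, Col11a2 in 4, Col9a2 and Col24a1 in 5, and Col8a2 and Col28a1 in 6, so tests on these 7 chains rest on few reads. At most 1 lactating mouse exceeded 1 deposited CPM in any of the 7. They passed through non-lactating mice, and that choice favours a fall in lactation, so counts against non-lactating glands are also given for the other 35 chains alone.

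Polyadenylated RNA was sequenced from snap frozen inguinal mammary glands of 24 mice in 8 groups of 3. NZB glands and C57 glands, labelled BL/6 NZB and BL/6 C57, were each taken from non-lactating mice and at lactation days 8, 14 and 21. Strains of this kind of name carry the mitochondrial DNA of NZB or C57 mice on a C57BL/6 nuclear background, but the labels give the name alone, and they give no age. The study's title concerns organelles of the gland under the stress that lactation brings. All levels below are CPM after 17 milk protein genes had been left out of the total and the rest rescaled, because those genes took a mean of 73.77% of the counts in NZB day 8 glands and 24.62% in NZB day 21 glands, against 70.39% in C57 day 21 glands.

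Depth ran from 7.03 to 24.25 (in units of 1000000 reads) per mouse, as the mean of 2 columns, and was lowest in the non-lactating groups. C57 non-lactating mouse 2 stood apart, with 2.17 and 11.89 in its columns, where those of each other mouse were close. The mean chi-square per gene between its columns was 1.64, against 0.49 to 1.18 in the other mice. Without it 27, 24 and 25 chains were called in C57 glands at days 8, 14 and 21 against non-lactating, and values that rest on it are given with and without it. C57 non-lactating mouse 3 is C57 by its title and NZB by its genotype tag and was kept as C57. In NZB non-lactating glands the summed level of 6 B cell markers ran from 12.7 to 1059 CPM, with mice 2 and 3 at the high end. Mouse 1 of C57 day 21 and mouse 1 of C57 day 14 were more alike than most mice of 1 group (mean chi-square per gene 16.78), as was the pair of mice numbered 2 (5.69), whereas mice of 1 group gave 12.13 to 211.31. These 4 libraries enter every comparison of C57 day 14 or day 21 glands.

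Fibrillar collagens, chiefly types I and III with small amounts of type V, form the tensile fibres of the stroma around the mammary ducts and alveoli, and fibroblasts are their main source. Type IV chains build the sheet-like network of the basement membrane on which epithelial, fat, muscle and vessel cells rest. The stroma, which is mostly fat in the resting gland, is displaced by alveoli as lactation is established and is rebuilt when the gland regresses after weaning. In bulk RNA of whole glands, fewer cells of a type and less RNA per cell cannot be told apart.

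The promoter windows of 5 chains are shown because they stand for the patterns that follow: Col1a2 and Col3a1 for the fibrillar chains that were lower in lactation, the divergent neighbours Col4a5 and Col4a6, and both annotated starts of Col9a1, which moved the opposite way to most collagens. Each runs 5′ to 3′ on the strand of the gene, from 250 bases before to 50 bases after a RefSeq start (GRCm38.p6), and capitals mark the CCAAT motif, the motif TATAA and the motif GGGCGG on either strand (TTATAA holds both strands' copies of the second, with overlap). The windows lie at chr6:4505368-4505667 on the plus strand for Col1a2, at chr1:45311288-45311587 on the plus strand for Col3a1, at chrX:141475169-141475468 on the plus strand for Col4a5, at chrX:141474027-141474326 on the minus strand for Col4a6, and at chr1:24177360-24177659 and chr1:24194953-24195252 on the plus strand for Col9a1.
Col1a2: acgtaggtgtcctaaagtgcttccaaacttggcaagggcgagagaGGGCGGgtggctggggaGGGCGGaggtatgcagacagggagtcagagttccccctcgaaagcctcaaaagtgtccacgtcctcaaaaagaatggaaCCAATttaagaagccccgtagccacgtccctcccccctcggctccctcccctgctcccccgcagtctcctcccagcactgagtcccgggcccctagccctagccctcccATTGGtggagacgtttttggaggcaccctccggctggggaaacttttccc
Col3a1: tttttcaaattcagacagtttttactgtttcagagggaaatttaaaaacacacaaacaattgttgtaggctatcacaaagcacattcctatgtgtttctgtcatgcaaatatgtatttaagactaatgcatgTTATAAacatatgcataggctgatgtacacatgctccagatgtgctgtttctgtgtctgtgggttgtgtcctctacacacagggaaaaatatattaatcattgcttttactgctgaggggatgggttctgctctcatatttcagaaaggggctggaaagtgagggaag
Col4a5: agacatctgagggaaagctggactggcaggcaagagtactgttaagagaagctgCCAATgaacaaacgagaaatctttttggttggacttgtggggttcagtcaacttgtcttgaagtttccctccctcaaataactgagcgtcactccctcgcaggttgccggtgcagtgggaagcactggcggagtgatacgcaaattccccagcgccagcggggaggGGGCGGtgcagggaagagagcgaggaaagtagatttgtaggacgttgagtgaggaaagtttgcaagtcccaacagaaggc
Col4a6: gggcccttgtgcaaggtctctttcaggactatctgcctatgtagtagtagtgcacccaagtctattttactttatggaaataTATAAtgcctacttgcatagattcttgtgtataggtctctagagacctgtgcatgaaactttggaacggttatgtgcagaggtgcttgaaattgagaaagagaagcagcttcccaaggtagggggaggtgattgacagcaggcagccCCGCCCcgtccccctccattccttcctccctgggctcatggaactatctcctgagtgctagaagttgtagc
Col9a1, first start: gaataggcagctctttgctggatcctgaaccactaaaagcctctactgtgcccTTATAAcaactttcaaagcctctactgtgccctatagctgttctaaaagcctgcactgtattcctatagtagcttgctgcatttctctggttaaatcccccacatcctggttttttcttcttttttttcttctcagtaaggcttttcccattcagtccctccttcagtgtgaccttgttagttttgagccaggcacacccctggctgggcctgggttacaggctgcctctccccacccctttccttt
Col9a1, second start: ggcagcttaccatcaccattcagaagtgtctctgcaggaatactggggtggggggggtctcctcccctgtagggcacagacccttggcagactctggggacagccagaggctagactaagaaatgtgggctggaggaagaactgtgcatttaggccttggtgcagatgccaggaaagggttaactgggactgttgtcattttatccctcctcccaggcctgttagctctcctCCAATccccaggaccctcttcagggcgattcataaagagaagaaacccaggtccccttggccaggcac

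The Col1a2 window held CCAAT or its reverse complement 2 times and GGGCGG 2 times, whereas the Col3a1 window held neither and had TATAA on both strands. The first Col9a1 window likewise had TATAA on both strands, and the second held CCAAT once. The table has windows for 35 of the 44 chains, 38 windows in all. GGGCGG on either strand was present in 60.5% of the 38 collagen windows, against 35.7% of the 32851 windows of the whole table. The CCAAT motif on either strand was present in 34.2% of collagen windows against 37.4% of all windows, TATAA on either strand in 18.4% against 24.9%, and the motif TTCNNNGAA, which reads alike on both strands, in 5.3% against 8.3%. These shares are descriptions of the letters in the windows.

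Several chains lie beside a partner in the genome (GENCODE release M21, GRCm38). Col4a1 (chr8:11198423-11312826, minus strand) and Col4a2 (chr8:11312805-11449287, plus strand) stand head to head and overlap by 22 bases. Col4a5 (chrX:141475385-141689234, plus strand) and Col4a6 (chrX:141165403-141474076, minus strand) stand head to head with 1308 bases between them, and Col4a3 and Col4a4 with 71. Col3a1 and Col5a2 end towards each other 24614 bases apart on chromosome 1.

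Collagen transcripts took a far smaller share of the non-milk counts in lactating than in non-lactating glands. In NZB glands the 44 chains together made up 0.929% ± 0.470 of the non-milk counts in non-lactating mice, 0.132% ± 0.0138 at day 8, 0.158% ± 0.0257 at day 14 and 0.304% ± 0.109 at day 21 (SD, n = 3 each). In C57 glands they made up 1.01% ± 0.291, 0.141% ± 0.0094, 0.152% ± 0.0218 and 0.139% ± 0.0136 at the same 4 stages (SD, n = 3 each). No lactating mouse overlapped the non-lactating mice of its own genotype, and each NZB day 21 mouse (0.419%, 0.202% and 0.292%) lay above each C57 day 21 mouse (0.149%, 0.144% and 0.123%).

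The make-up of the collagen counts differed as well. Fibrillar chains gave 58.1%, 41.2%, 45.4% and 49.4% of collagen counts on average in NZB non-lactating, day 8, day 14 and day 21 glands, and 56.9%, 43.5%, 45.8% and 43.1% in the C57 groups. Type IV chains gave 20.2%, 28.7%, 26.4% and 28.5% in NZB glands and 19.3%, 29.6%, 24.5% and 26.1% in C57 glands. The fibrillar share was thus lower, and the type IV share higher, in every lactating group mean than in the non-lactating mean of the same genotype. Single mice overlapped for the fibrillar share in NZB glands, at 56.7% in day 21 mouse 3 against 53.7% in non-lactating mouse 3. Per kilobase of the longest coding transcript, Col3a1, Col1a1 and Col4a1 held the 3 highest levels in every group, for instance 109.5 ± 44.5, 75.4 ± 28.8 and 64.3 ± 27.7 CPM per kilobase in NZB day 21 glands, against 41.3 ± 11.1, 31.9 ± 2.59 and 30.2 ± 1.65 CPM per kilobase in C57 day 21 glands (SD, n = 3 each).

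**Figure D1:**
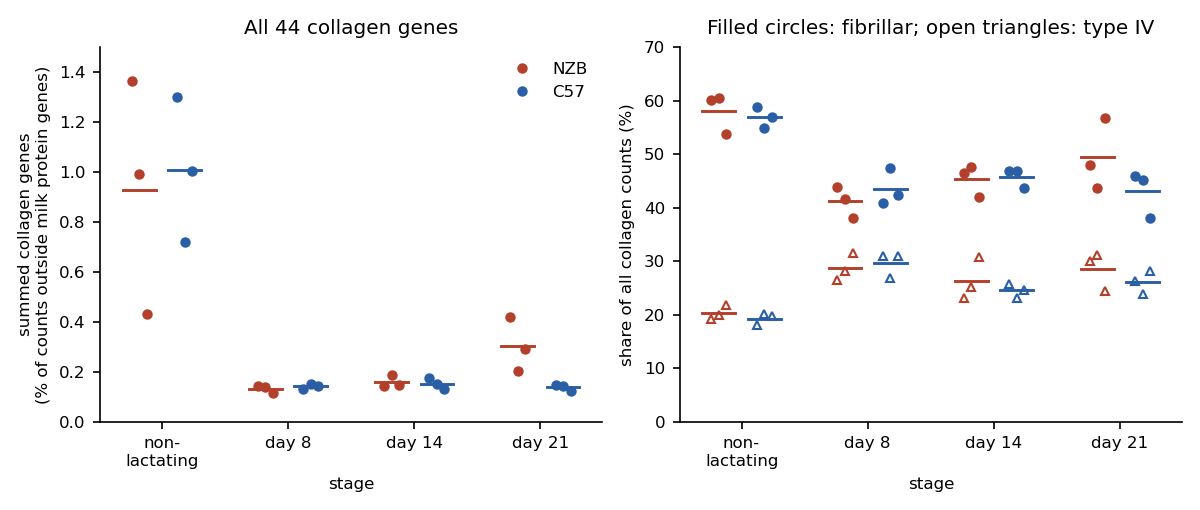
Left, the summed level of 44 collagen chains as a percent of counts outside the milk protein genes, one point per mouse, by stage and genotype; right, the percent of those collagen counts from fibrillar chains (circles) and type IV chains (triangles). Non-lactating glands stood at 0.430 to 1.36% in NZB and 0.719 to 1.30% in C57 mice, and the 3 NZB day 21 glands (0.202 to 0.419%) stood above the 3 C57 day 21 glands (0.123 to 0.149%).

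Lactation was set against the non-lactating state in each genotype with limma, fitted over all 16121 genes with Benjamini-Hochberg adjustment, and a gene was called at an adjusted p under 0.05. At day 8, 22 of the 42 chains were lower and 2 higher in NZB glands, where 23.5% of all genes tested were lower and 11.6% higher. In C57 glands 25 chains were lower and 1 higher at day 8, where 34.8% of all genes were lower and 14.2% higher. The median log2 difference of the chains was -1.05 in NZB and -1.25 in C57 glands at day 8, and that of all genes -0.33 in each. At day 14, 20 chains were lower and 2 higher in NZB glands (19.7% and 11.6% of all genes), and 23 were lower and 1 higher in C57 glands (24.5% and 13.5%). At day 21, 12 chains were lower and 4 higher in NZB glands (7.37% and 10.9% of all genes), and 23 were lower and 1 higher in C57 glands (23.6% and 12.2%). The chains were thus called lower about as often at the 3 stages in C57 mice, and in NZB mice least often at day 21. Of the 35 chains above 1 deposited CPM in at least 3 lactating mice, 19, 18 and 9 were lower in NZB glands at days 8, 14 and 21, and 22, 20 and 20 in C57 glands. The filter can still favour a fall in some of them, as the 3 such mice of Col8a1 were all NZB day 21 mice. The NZB day 21 count of 16 chains fell to 5 without NZB non-lactating mouse 2 or without NZB day 21 mouse 2, and to 4 without NZB day 21 mouse 3.

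**Figure D2:**
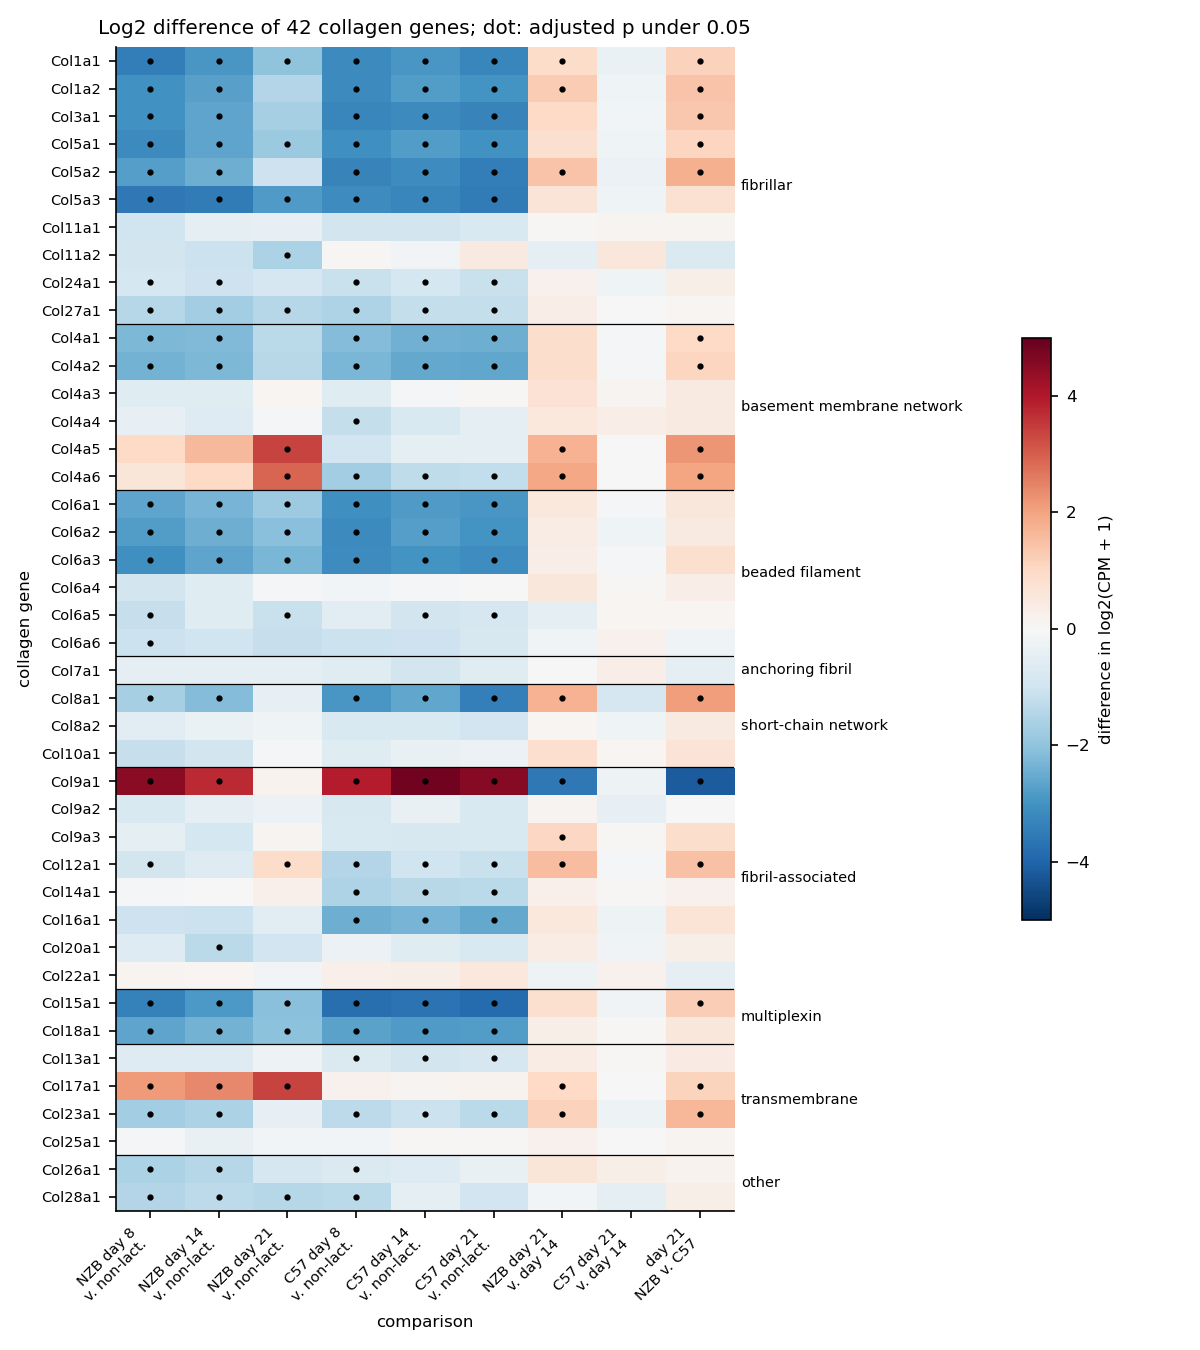
Log2 difference of each of the 42 tested collagen chains (rows, grouped by class) in 9 comparisons (columns), as the first-named group minus the second; dots mark an adjusted p under 0.05. Most fibrillar rows, Col6a1 to Col6a3, Col15a1 and Col18a1 are negative in lactation, and Col9a1 is called higher in lactation at every stage in C57 glands and at days 8 and 14 in NZB glands.

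The fibrillar chains held the largest share of the collagen counts and were lower in lactation. Of 10 fibrillar chains tested, 8 fell at days 8 and 14 in both genotypes and at day 21 in C57 glands, and 5 fell at day 21 in NZB glands. Without Col24a1 and Col11a2, which passed the filter through non-lactating mice, these counts were 7 of 8 and 4 of 8. Col1a1 (chr11:94936224-94953042, plus strand), the alpha 1 chain of type I collagen, stood at 3001, 2080.0 and 804 CPM in NZB non-lactating mice, 182, 169.9 and 119 CPM at day 8, 202, 288 and 194 CPM at day 14 and 619.7, 278 and 444 CPM at day 21. C57 mice had 2548, 1265 and 1872 CPM, then 168, 231 and 203 CPM, then 286, 234 and 205 CPM, and 198, 198 and 171 CPM at the same stages. Every lactating mouse was below every non-lactating mouse of its genotype, and NZB day 21 mice were above C57 day 21 mice. Col1a1 fell by 3.46 ± 0.46 on the log2 scale in NZB glands at day 8 (SE, adjusted p = 0.0012) and by 3.19 ± 0.25 in C57 glands (adjusted p = 6.68e-06), which is 12.5 and 9.44 times in mean CPM.

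Col3a1 (chr1:45311538-45349706, plus strand), the single chain of type III collagen, stood at 3084, 2346 and 786 CPM in NZB non-lactating mice, 262, 229 and 168 CPM at day 8, 267, 362 and 242 CPM at day 14 and 746, 324 and 759 CPM at day 21. C57 mice had 3118, 1577 and 2348 CPM, 201, 284 and 236 CPM, 308, 267 and 180.3 CPM, and 262, 269 and 159 CPM at the same stages. Like Col1a1 it was highest in every non-lactating mouse of each genotype, and at day 21 each NZB mouse was above each C57 mouse. Its log2 difference at day 8 was -3.04 in NZB (adjusted p = 0.0027) and -3.24 in C57 glands (adjusted p = 6.21e-06). At day 21 against non-lactating glands it was -3.33 in C57 mice (adjusted p = 2.5e-05), whereas in NZB mice it was -1.65 and was not called (adjusted p = 0.086).

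Col5a2 (chr1:45374321-45503282, minus strand), a chain of type V collagen, which regulates the width of type I fibrils, gave 352, 271 and 97.3 CPM in NZB non-lactating mice, 28.2, 28.8 and 34.1 CPM at day 8, 38.7, 37.2 and 36.6 CPM at day 14 and 149, 65.0 and 111 CPM at day 21. C57 mice gave 454, 207 and 387 CPM, 32.9, 34.0 and 29.9 CPM, 36.4, 41.4 and 32.2 CPM, and 40.2, 32.1 and 19.9 CPM. The NZB day 21 mice overlapped the NZB non-lactating mice and lay above all 3 mice of NZB day 14. The other type V chains Col5a1 and Col5a3 fell at all 3 stages in both genotypes, with log2 differences between -3.59 and -1.87. Col27a1, a fibrillar chain of lower abundance, also fell at all 3 stages in both genotypes, by 1.41 at day 8 in NZB and 1.55 in C57 glands. Col24a1, which passed the filter through non-lactating mice alone, had 0.683 to 1.74 CPM in NZB and 1.076 to 1.243 CPM in C57 non-lactating mice and at most 0.646 CPM in lactating ones. The remaining tested members of the class, Col11a1, a chain found with fibrils of cartilage, and Col11a2, were not called at day 8 in either genotype.

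The type IV chains lie in 3 gene pairs. Col4a1, which with Col4a2 makes the type IV trimer found in nearly all basement membranes, stood at 1592, 1189.7 and 573 CPM in NZB non-lactating mice, 206, 233 and 213 CPM at day 8, 184, 270.0 and 215 CPM at day 14 and 629.8, 276 and 371 CPM at day 21. The C57 values were 1419, 765 and 1205 CPM, 237, 234 and 260.2 CPM, 253, 193 and 184 CPM, and 212, 197 and 191 CPM. Of the lactating mice, only NZB day 21 mouse 1 (629.8 CPM) reached the range of its non-lactating group. Col4a1 fell by 2.24 at day 8 in NZB (adjusted p = 0.0027) and by 2.16 in C57 glands (adjusted p = 3.4e-05), and Col4a2 by 2.38 and 2.27. Per kilobase, Col4a1 stood at 1.44 to 1.92 times Col4a2 in all 24 mice (median 1.64), so the head-to-head pair kept nearly the same proportion while the level of each changed several times over.

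Col4a5 and Col4a6, the X-linked pair whose products join in basement membranes of a narrower set of tissues, were not called at days 8 and 14 in NZB glands, where Col4a1 fell, and Col4a5 was not called at any stage in C57 glands. Col4a5 stood at 9.10, 19.97 and 2.30 CPM in NZB non-lactating mice, 19.9, 18.2 and 13.01 CPM at day 8, 18.7, 18.9 and 50.7 CPM at day 14 and 93.7, 93.9 and 83.6 CPM at day 21. The C57 values were 18.2, 57.3 and 19.04 CPM, 14.7, 12.9 and 13.6 CPM, 23.6, 16.6 and 18.4 CPM, and 28.8, 17.2 and 13.7 CPM. The 3 NZB day 21 mice were above all 21 other mice. Against NZB non-lactating glands, Col4a5 at day 21 was higher by 3.36 ± 0.59 on the log2 scale (SE, adjusted p = 0.0095).

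Col4a6 was at 7.55, 16.6 and 4.76 CPM in NZB non-lactating mice, 11.7, 13.6 and 15.1 CPM at day 8, 9.93, 12.3 and 45.6 CPM at day 14 and 132, 67.1 and 39.2 CPM at day 21. The C57 mice had 30.4, 84.9 and 27.1 CPM, 14.7, 9.93 and 10.5 CPM, 20.8, 15.9 and 14.2 CPM, and 25.3, 14.8 and 13.1 CPM. NZB day 14 mouse 3 was high for both genes of the pair, and so was C57 non-lactating mouse 2. Col4a6 fell by 1.76 in C57 glands at day 8 (adjusted p = 0.0039; -1.25, adjusted p = 0.00088 without C57 non-lactating mouse 2), and in NZB glands it was higher at day 21 by 2.91 ± 0.53 (SE, adjusted p = 0.011). With no filter on low values the adjusted p was 0.058 for that fall and 0.062 for that rise, and 0.0596 for the rise of Col4a5. The level of Col4a5 per kilobase was on average 0.009, 0.0796, 0.138 and 0.241 of that of Col4a1 in NZB non-lactating, day 8, day 14 and day 21 glands, and 0.035, 0.057, 0.0941 and 0.0995 in the C57 groups. Of these means 3 rest on 1 mouse: the NZB non-lactating mean was 0.0049 without mouse 2, the NZB day 14 mean 0.0868 without mouse 3 and the C57 non-lactating mean 0.0145 without mouse 2, whose own ratio (0.0759) lay above those of all 3 C57 day 8 mice. Col4a3 and Col4a4, the pair best known from kidney and lung basement membranes, ranged from 2.43 to 9.28 CPM over all mice, and Col4a4 fell in C57 glands at day 8 by 1.19 (adjusted p = 0.0038).

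Among the beaded-filament chains of type VI, which link fibrils to cells, Col6a1, Col6a2 and Col6a3 fell at all 3 stages in both genotypes. Col6a3 stood at 781, 475 and 241 CPM in NZB non-lactating mice, 51.0, 64.1 and 45.03 CPM at day 8, 73.6, 89.2 and 55.7 CPM at day 14 and 161, 44.96 and 104 CPM at day 21, and no lactating NZB mouse reached the lowest non-lactating one. Its log2 difference at day 21 was -2.28 in NZB (adjusted p = 0.028) and -3.10 in C57 glands (adjusted p = 3.6e-05). The multiplexins, basement membrane collagens whose C-terminal fragments are released as endostatins, also fell at every stage in both genotypes. Col15a1 (chr4:47208161-47313167, plus strand) had 634, 391 and 185 CPM in NZB non-lactating mice, 25.9, 39.7 and 35.2 CPM at day 8, 42.6, 56.6 and 45.6 CPM at day 14 and 129.8, 60.4 and 75.1 CPM at day 21. C57 mice had 614, 457 and 479.9 CPM without lactation and 34.6 to 41.5 CPM in the 9 lactating mice. Col15a1 fell by 3.397 at day 8 in NZB (adjusted p = 0.00084) and by 3.79 in C57 glands (adjusted p = 1.42e-07), and Col18a1 by 2.63 and 2.66. Markers of vessels were also lower in lactation, as these basement membrane chains were. The sum of 10 endothelial markers was 749 to 1162 CPM in NZB non-lactating glands, 280.2 to 382 CPM at day 8, 246 to 363 CPM at day 14 and 250.4 to 446 CPM at day 21, and in C57 glands 691 to 767 CPM, 261 to 336 CPM, 267 to 336 CPM and 274 to 349 CPM. At day 8, 9 of the 10 fell in each genotype, as did 5 of 6 pericyte markers in NZB and 6 of 6 in C57 glands. Of all genes tested, 23.5% fell in NZB and 34.8% in C57 glands. None of the endothelial markers was called between NZB day 21 and day 14, and 1 pericyte marker was higher, where 16.4% of all genes were higher and 6.1% lower. At day 21 the endothelial sums of NZB and C57 glands overlapped, whereas Col4a1, Col4a2 and Col15a1 were called higher in NZB glands. The part of the vessel markers in the type IV, Col15a1 and Col18a1 values was not tested.

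Col9a1 (chr1:24177610-24252684, plus strand), a chain of type IX collagen, best known from the surface of cartilage fibrils, was higher in lactating than in non-lactating glands, at days 8 and 14 in both genotypes and at day 21 in C57 glands. It had 0.948, 1.75 and 1.02 CPM in NZB non-lactating mice, 88.8, 56.5 and 23.1 CPM at day 8, 37.2, 38.9 and 16.1 CPM at day 14 and 2.89, 2.43 and 0.205 CPM at day 21. The C57 mice had 0.345, 2.64 and 0.474 CPM, 32.7, 24.7 and 29.3 CPM, 40.4, 71.1 and 52.8 CPM, and 29.3, 70.2 and 42.4 CPM. All day 8 and day 14 mice were above all non-lactating mice, and at day 21 the C57 mice were as high as at day 14 while the NZB mice overlapped the non-lactating mice. Behind these levels were 38, 30 and 2 reads in the NZB day 21 mice, against 198, 352 and 236 reads in the C57 day 21 mice.

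Against non-lactating glands, Col9a1 rose by 4.49 ± 0.48 at day 8 in NZB (SE, adjusted p = 0.00046) and by 3.94 ± 0.37 in C57 glands (adjusted p = 2.3e-05), which is 45.2 and 25.1 times in mean CPM. The C57 factor was 70.5 without non-lactating mouse 2 (log2 difference 4.40). At day 21 it was higher by 4.55 ± 0.44 in C57 glands (adjusted p = 3.81e-05) and by 0.19 ± 0.46 in NZB glands, where it was not called (adjusted p = 0.81). The rise held on the deposited scale, with the milk protein genes counted, at 2.67 in NZB and 2.13 in C57 glands at day 8. Col9a1 needs the alpha 2 and alpha 3 chains to form the type IX trimer of cartilage. Col9a2 ranged from 0 to 7.16 CPM and Col9a3 from 0.453 to 6.77 CPM over the 24 mice, and neither was called in either genotype at day 8. Among markers of cartilage and bone, Acan reached at most 3.58 CPM, Matn1 0.082 CPM, Ibsp 0.453 CPM and Bglap 0.445 CPM in any mouse. Sox9, a transcription factor of cartilage that mammary epithelium also makes, was the only gene of that list to be tested, and it rose in lactation with Col9a1, by 2.79 at day 8 in NZB (adjusted p = 0.0022) and by 1.79 in C57 glands (adjusted p = 0.0074). It stood at 7.11 to 29.2 CPM in NZB non-lactating mice, 99.0 to 115 CPM at day 8, 88.0 to 206 CPM at day 14 and 151 to 248 CPM at day 21, so in NZB day 21 glands it was high while Col9a1 was low. Its part in the Col9a1 values was not tested.

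The other fibril-associated chains were less uniform. Col12a1 (chr9:79598991-79718831, minus strand), which sits on the surface of type I fibrils, had 21.8, 21.2 and 16.7 CPM in NZB non-lactating mice, 10.3, 9.54 and 10.3 CPM at day 8, 11.3, 12.1 and 13.4 CPM at day 14 and 31.3, 44.3 and 38.9 CPM at day 21. In C57 mice it had 29.9, 35.7 and 24.1 CPM, 7.08, 8.82 and 15.4 CPM, 13.5, 14.2 and 15.1 CPM, and 16.7, 10.1 and 13.2 CPM. Every NZB day 21 mouse was above every NZB non-lactating mouse, the reverse of the C57 mice. The difference from the non-lactating state at day 21 was 0.90 ± 0.23 in NZB (SE, adjusted p = 0.035) and -1.12 in C57 glands (adjusted p = 0.0074), but the NZB call was lost on the deposited scale (0.52, adjusted p = 0.19) and without NZB day 21 mouse 2, NZB day 21 mouse 3 or NZB non-lactating mouse 2 (differences from 0.79 to 1.03 over the mice left out).

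Col14a1, a fibril-associated chain of dense connective tissue, had 24.05, 39.9 and 27.3 CPM in NZB non-lactating mice, 25.04, 26.6 and 32.8 CPM at day 8, 26.7, 31.5 and 30.1 CPM at day 14 and 38.5, 35.6 and 32.2 CPM at day 21. The C57 mice had 123.3, 49.99 and 74.6 CPM, 37.2, 23.4 and 19.1 CPM, 41.7, 26.9 and 22.1 CPM, and 31.3, 30.6 and 28.4 CPM. It fell in C57 glands at day 8 (-1.56, adjusted p = 0.0033) and was not called in NZB glands (-0.08, adjusted p = 0.82). The difference between those changes, 1.47, was itself not called (adjusted p = 0.27). Col16a1 likewise fell in C57 glands (-2.43, adjusted p = 3.4e-05) and was not called in NZB glands (-1.05, adjusted p = 0.083), and the difference of 1.38 was not called (adjusted p = 0.33).

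Col17a1 (chr19:47646344-47692094, minus strand), the transmembrane collagen of hemidesmosomes, which anchors basal epithelial cells, had 7.13, 11.4 and 4.14 CPM in NZB non-lactating mice, 30.1, 33.2 and 40.6 CPM at day 8, 34.7, 44.3 and 46.5 CPM at day 14 and 118, 93.4 and 51.4 CPM at day 21. In C57 mice it had 28.3, 51.7 and 25.6 CPM, 38.2, 36.0 and 41.6 CPM, 29.2, 41.2 and 42.8 CPM, and 28.02, 44.5 and 44.2 CPM. The NZB non-lactating mice were lowest, NZB day 21 mice 1 and 2 were highest, and the C57 groups overlapped at all stages. Col17a1 rose in NZB glands by 2.14 ± 0.35 at day 8 (SE, adjusted p = 0.0028) and 3.38 ± 0.42 at day 21 (SE, adjusted p = 0.0026), and the day 8 call was lost on the deposited scale (0.33, adjusted p = 0.37). In C57 glands its day 8 difference was 0.20 on the rescaled levels (adjusted p = 0.54), 0.50 without C57 non-lactating mouse 2 (adjusted p = 0.011) and -1.64 on the deposited scale (adjusted p = 0.00016). With limma, the difference between the genotypes' day 8 changes was not called for Col17a1 or any other chain.

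The summed level of 9 myoepithelial markers, genes of the contractile basal cells, was lowest in NZB non-lactating glands, as was Col17a1. It was 179 to 398 CPM there, 1013 to 1305 CPM at day 8, 1362 to 1542 CPM at day 14 and 1321 to 2062 CPM at day 21. In C57 glands it was 647 to 1098 CPM, 1198 to 1290 CPM, 962 to 1314 CPM and 903 to 1248 CPM. The sums of NZB day 21 and day 14 mice overlapped, whereas their Col17a1 levels did not. In C57 glands the sums were higher at day 8 than in non-lactating mice without overlap, whereas Col17a1 was not called. At day 8, 8 of the 9 markers were higher in NZB and 4 of 9 in C57 glands, where 11.6% and 14.2% of all genes tested were higher. Their part in the Col17a1 and Col4a5 values was not tested. Of the other transmembrane chains, Col23a1 fell at day 8 in both genotypes (-1.74 in NZB and -1.31 in C57 glands), and Col25a1 was called at no stage. Col13a1 passed the filter through 3 non-lactating mice alone (1.86, 1.18 and 1.58 CPM), so nothing is read from its call in C57 glands. Of the remaining tested chains, Col8a1, a short-chain network collagen of vessel walls, fell by 1.67 at day 8 in NZB and by 2.90 in C57 glands. Its day 8 levels rest on 10, 16 and 18 reads in NZB and 6, 10 and 13 reads in C57 mice. Col8a1 exceeded 1 deposited CPM in the 6 non-lactating and the 3 NZB day 21 mice alone, which favours calls that set those groups higher. Col26a1 fell by 1.57 in NZB (adjusted p = 0.011) and by 0.73 in C57 glands (adjusted p = 0.047). Col6a6 fell by 1.06 in NZB glands (adjusted p = 0.049) and had a difference of -1.06 in C57 glands, where it was not called (adjusted p = 0.065). Col28a1, called lower at day 8 in both genotypes, and Col6a5, called lower in NZB glands, were among the 7 chains that passed through non-lactating mice. Col10a1, Col20a1 and Col22a1 were not called at day 8, and neither was Col7a1, the anchoring fibril chain beneath epithelia.

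**Figure D3:**
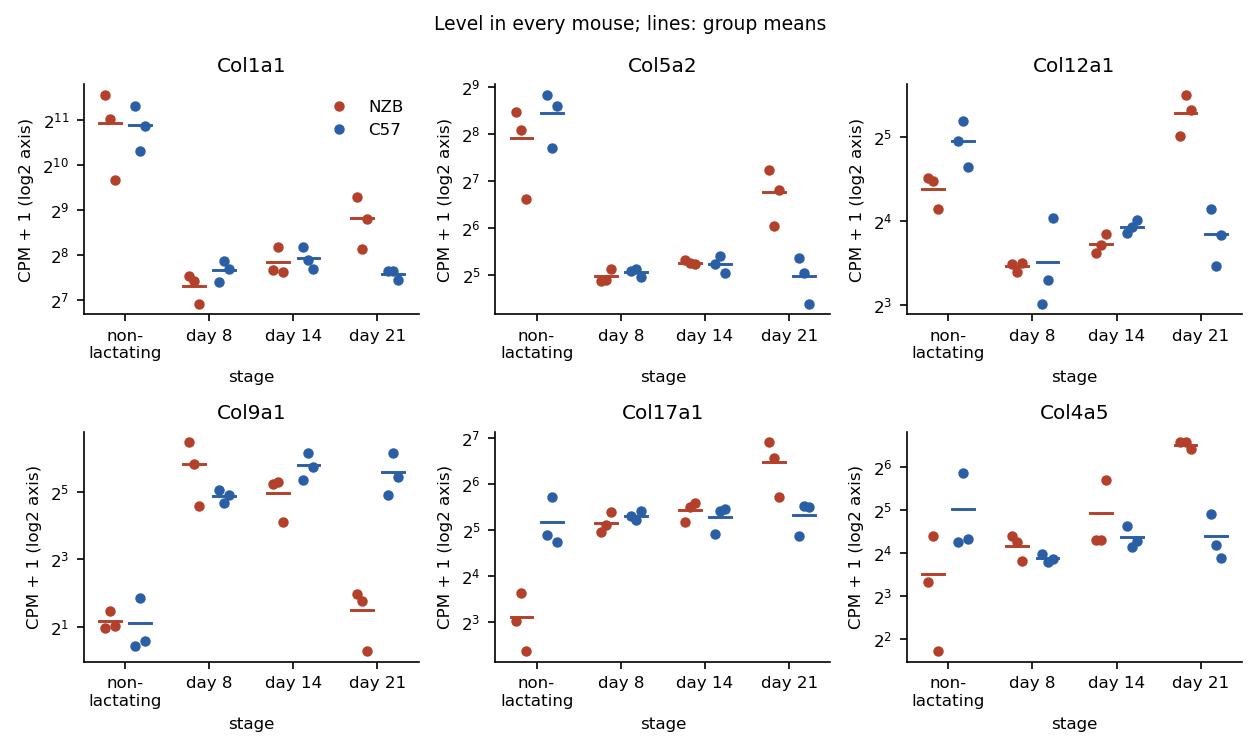
Level of 6 collagen chains in each of the 24 mice, in CPM plus 1 without the milk protein genes on a log2 axis, by stage and genotype. Short lines mark group means. Col1a1 and Col5a2 are high in non-lactating glands and partly higher again at day 21 in NZB glands alone, Col9a1 is high in every lactating group other than NZB day 21, and Col4a5 (83.6 to 93.9 CPM) and Col12a1 (31.3 to 44.3 CPM) stand highest or among the highest in NZB day 21 glands.

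The late stages were then compared within each genotype. In NZB glands 10 of the 42 chains were higher and 1 lower at day 21 than at day 14, where 16.4% of all genes tested were higher and 6.1% lower, and the median log2 difference was 0.54 for the chains and 0.29 for all genes. In C57 glands no chain and no gene was called by limma (0% of genes in either direction). Without adjustment 1 chain and 117 of 16121 genes had p under 0.05 there, and limma voom on recovered reads also called 0 chains. Mice 1, and likewise mice 2, of C57 day 14 and day 21 were more alike than most mice of 1 group, and these tests took all mice as independent. With the replicate number as a block 0 chains were called too. The lack of calls is thus not read as a lack of change in C57 glands. The chains called higher in NZB glands were Col12a1 (1.55 ± 0.20, adjusted p = 0.0023), Col5a2 (1.43 ± 0.27, adjusted p = 0.0090), Col4a5 (1.74 ± 0.34, adjusted p = 0.0105), Col1a2 (1.27 ± 0.29, adjusted p = 0.017), Col23a1, Col17a1, Col4a6, Col9a3, Col8a1 and Col1a1 (0.92 ± 0.29, SE, adjusted p = 0.049). The lower one was Col9a1 (-3.56 ± 0.49, SE, adjusted p = 0.0032), 16.7 times in mean CPM. Of the higher ones, Col8a1 had only 5, 11 and 12 reads in the NZB day 14 mice. Col9a3 was low too, at no more than 6.77 CPM in any mouse. It exceeded 1 deposited CPM in the 6 non-lactating mice and only 3 lactating mice, so its call also rests on few reads.

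Only Col12a1, Col5a2 and Col9a1 among these 11 kept the call whichever single mouse was left out. With no filter on low values Col12a1 and Col9a1 alone were called (2 chains), and Col5a2 missed the threshold (adjusted p = 0.074). Col4a5 lost it without NZB day 14 mouse 2 (1.52, adjusted p = 0.053), and without that mouse 3 chains in all were called. Without NZB day 14 mouse 1 or mouse 3 there were 6 calls, and without NZB day 21 mouse 1 there were 7. With TMM scaling, which brought the median of all genes to 0.08, 3 chains were higher (Col12a1, Col5a2 and Col4a5) and Col9a1 lower, and the other 7 chains kept their direction without a call. Col1a1 at day 21 overlapped day 14, because NZB day 21 mouse 2 (278 CPM) was below NZB day 14 mouse 2 (288 CPM).

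Genotypes were compared at each stage. At day 21, 14 of the 42 chains were higher and 1 lower in NZB than in C57 glands, where 14.8% of all genes were higher and 4.96% lower. The median was 0.51 for the chains and 0.31 for all genes. The higher chains were 5 of 10 fibrillar (Col1a1, Col1a2, Col3a1, Col5a1 and Col5a2), 4 of 6 type IV (Col4a1, Col4a2, Col4a5 and Col4a6), and Col8a1, Col12a1, Col15a1, Col17a1 and Col23a1. Col8a1 had only 14, 3 and 2 reads in the C57 day 21 mice. The log2 difference was 2.19 ± 0.26 for Col4a5 (adjusted p = 0.00065), 1.46 ± 0.25 for Col12a1 (adjusted p = 0.0041) and 1.16 ± 0.27 for Col1a1 (SE, adjusted p = 0.015). The lower chain was again Col9a1, at -4.17 ± 0.48 (SE, adjusted p = 0.00055), or 25.7 times lower in mean CPM. Without C57 day 21 mouse 2 or mouse 3 the count of 15 chains fell to 7, with TMM scaling to 9 and with no filter on low values to 3 (Col4a5, Col12a1 and Col9a1). None of the 6 type VI chains was called.

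At the 3 other stages limma called no chain between genotypes. In non-lactating glands 0.0248% of genes were higher and 0.0124% lower in NZB mice, at day 8 0.0186% and 0.0124%, and at day 14 0.0248% and 0.0124%. Limma voom also called 0 chains at each of these stages. Without adjustment 7 chains had p under 0.05 in non-lactating glands, of which Col4a6 (-2.15), Col17a1 (-2.10), Col14a1 (-1.35), Col16a1 (-1.30) and Col12a1 (-0.56) had lower values in NZB mice and Col11a2 (1.32) and Col23a1 (0.72) higher ones. There were 2 such chains at day 8, Col4a2 (-0.24) and Col4a4 (0.90), and 1 at day 14, Col9a1 (-0.87). Over all 16121 genes, 1821 had such a p in non-lactating glands, 1931 at day 8 and 555 at day 14. No difference between genotypes is therefore read from these chains. In a fit with one spread for all 24 mice, 4 chains were called lower in non-lactating NZB glands. The share of all genes in that fit is not given, so this count is not read as a result about collagens.

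The change at day 21 against day 14 was compared between genotypes by an interaction term. It was larger in NZB glands for 4 chains and lower for 1, where 2.96% and 2.15% of all genes were called in those directions. The difference between changes was 1.67 ± 0.30 for Col12a1 (adjusted p = 0.0099), 1.72 ± 0.40 for Col5a2 (adjusted p = 0.028), 1.46 ± 0.36 for Col1a2 (adjusted p = 0.036), 1.77 ± 0.48 for Col4a5 (adjusted p = 0.049) and -3.30 ± 0.64 for Col9a1 (SE, adjusted p = 0.014). Col1a1 (1.26, adjusted p = 0.056) and Col8a1 (2.59, adjusted p = 0.0501) missed the threshold. Of these 5 calls, only that of Col12a1 held in all 12 fits that left out 1 mouse. With TMM scaling 2 were called, Col12a1 (1.405) and Col9a1 (-3.48), and with no filter on low values Col12a1 alone (adjusted p = 0.030). That of Col9a1 was lost without NZB day 14 mouse 2 (-3.08, adjusted p = 0.0502), and without that mouse 1 chain in all was called. There were 2 calls without NZB day 14 mouse 1 or without mouse 2 or mouse 3 of C57 day 21 or mouse 1 or mouse 2 of C57 day 14, 3 without NZB day 21 mouse 1 or C57 day 14 mouse 3, and 8 without C57 day 21 mouse 1. The interaction for day 8 against non-lactating glands called no chain with limma (0.031% of genes higher and 0.0372% lower). It gave 6 chains, and 1725 of all 16121 genes, with an unadjusted p under 0.05. There was 1 called chain in the fit of all 24 mice, 1 without NZB non-lactating mouse 1 and 2 without NZB non-lactating mouse 2.

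**Figure D4:**
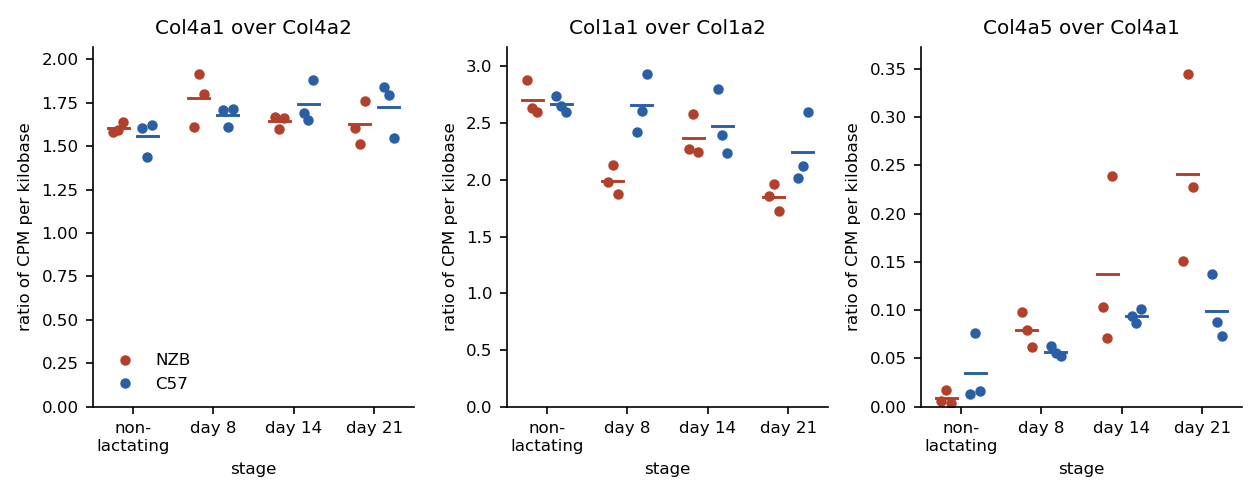
Ratio of levels per kilobase within each mouse for Col4a1 over Col4a2, Col1a1 over Col1a2 and Col4a5 over Col4a1, by stage and genotype. Col4a1 over Col4a2 stays between 1.44 and 1.92 in all mice, whereas Col4a5 over Col4a1 spans 0.0041 to 0.345, with the highest mean in NZB day 21 glands. For Col4a5 over Col4a1, NZB day 14 mouse 3 (0.239) lies above NZB day 21 mice 1 (0.151) and 3 (0.228).

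Ratios of chains that share a trimer varied little for Col4a1 with Col4a2, more for type I, and widely for type IX. Per kilobase, Col4a5 over Col4a6 spanned 0.492 to 2.17 over the 24 mice and Col5a1 over Col5a2 0.409 to 1.03. Col6a1 over Col6a2 spanned 1.06 to 1.72 and Col6a1 over Col6a3 1.76 to 4.18. Type I collagen holds more alpha 1 than alpha 2 chain, and Col1a1 per kilobase stood at 1.73 to 2.94 times Col1a2 over the 24 mice. The group means were 2.70, 1.99, 2.37 and 1.85 in NZB non-lactating, day 8, day 14 and day 21 glands and 2.67, 2.66, 2.48 and 2.25 in the C57 groups. Every NZB lactating mouse (1.73 to 2.58) lay below every NZB non-lactating mouse (2.60 to 2.88). The lowest mean was that of NZB day 21 glands, in which Col1a2 had been called higher than at day 14 with a larger difference than Col1a1. Col9a1 over Col9a3 per kilobase spanned 0.0736 to 85.4 over the 24 mice, and Col9a1 over Col9a2 0.266 to 170.1 in the 23 mice with any Col9a2 reads. Col9a2 exceeded 1 deposited CPM in only 5 mice and Col9a3 in 9, so the extremes of the type IX ratios rest on few reads. These ratios are descriptions without a test.

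The machinery that modifies, secretes and anchors collagen did not change as one. Over all genes tested at day 8, 23.5% were lower and 11.6% higher in NZB glands, and 34.8% and 14.2% in C57 glands. Of 14 genes that cleave propeptides or cross-link chains, 9 fell and none rose at day 8 in NZB glands and 12 fell and none rose in C57 glands, among them Bmp1, a procollagen C-proteinase (-2.66 in C57), Pxdn, which cross-links type IV collagen (-2.66), and Tgm2 (-3.96). Of 14 fibril-associated proteins, 12 fell in NZB glands, and 13 fell and 1 rose in C57 glands. Lum, which regulates fibril spacing, was lower by 3.41 in C57 glands, and Fmod was the one that rose (0.65). Among 15 enzymes and partners of hydroxylation and glycosylation, 7 fell and 3 rose in NZB and 8 fell and 3 rose in C57 glands. In C57 glands Plod1 (-2.16) and Plod2 (-2.39), lysyl hydroxylases, fell, whereas P4hb (2.17), which serves as a subunit of prolyl hydroxylase and as a general disulfide isomerase, and P3h2 (1.42) and Ppib (0.86) rose. Of 8 chaperone and export genes 2 fell and 3 rose in NZB and 4 fell and 3 rose in C57 glands, where Serpinh1, the collagen chaperone HSP47, fell by 2.94 and Mia3, which loads large cargo for export, rose by 2.18.

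Basement membrane partners also split, beside the same shares of all genes at day 8 (23.5% lower and 11.6% higher in NZB, 34.8% and 14.2% in C57 glands). Of 15 genes, 7 fell and 3 rose in NZB glands at day 8, and 10 fell and 1 rose in C57 glands. Nid1, which bridges laminin and type IV collagen, fell by 3.14 and Lama4, a laminin chain of vessels and fat, by 3.01 in C57 glands. Lama1 rose in both (3.71 in NZB and 2.14 in C57 glands), and Lama3, an epithelial laminin chain, rose in NZB glands (1.07). Among 11 receptors 4 fell and 1 rose in NZB and 6 fell and 1 rose in C57 glands, where the collagen receptor Ddr2 fell by 2.88 and its epithelial relative Ddr1 rose by 1.03. Of 9 breakdown genes 6 fell and 1 rose in each genotype, and in C57 glands Mmp14 fell by 3.08 and Mmp2 by 2.80 while Mmp13 rose by 1.09.

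At day 21 against day 14 in NZB glands, where 16.4% of all genes tested were higher and 6.1% lower, 8 of 14 cleavage and cross-linking genes rose and none fell, among them Lox (1.71), which oxidises lysines for cross-links, and Loxl1 (1.32). Of 14 fibril-associated proteins 7 rose and none fell, with Thbs2 at 1.97 and Postn at 1.36, and of 9 breakdown genes 6 rose and none fell, with Ctsl at 2.12, Mmp3 at 1.96, Mmp2 at 1.55 and Mmp14 at 1.43. Of 15 basement membrane partners 5 rose and 1 fell (Nid2, -1.43). Among 15 hydroxylation genes 4 rose, with Plod2 at 2.54, and 3 fell, with P4hb at -1.67 and Ppib at -1.05. Of 11 receptors 4 rose, with Ddr2 at 1.26, and 1 fell (Cd36, -1.53), and of 8 chaperone and export genes 1 rose and 3 fell.

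Markers of stromal cells ran beside these values. The sum of 12 fibroblast markers was 1669.8 to 4808 CPM in NZB non-lactating glands, 274 to 290 CPM at day 8, 326 to 388 CPM at day 14 and 422 to 1122 CPM at day 21, and 2185 to 4593, 196 to 317, 249 to 346 and 241 to 298 CPM at the same stages in C57 glands. At day 8, 10 of the 11 tested markers fell in NZB and 11 of 11 in C57 glands, and at day 21 in NZB glands 5 of 11 were higher than at day 14 and 6 of 11 higher than in C57 glands. Of all genes tested, 23.5% fell at day 8 in NZB and 34.8% in C57 glands. In NZB day 21 glands 16.4% of all genes were higher than at day 14 and 14.8% higher than in C57 glands. The sum of 10 fat cell markers ran likewise, at 4841 to 13573, 887 to 1410.3, 812 to 1379.8 and 1496 to 4145 CPM in NZB glands and 6184 to 11261, 748 to 1162, 801 to 1292 and 773 to 1324 CPM in C57 glands. In NZB day 21 glands all 6 macrophage markers rose against day 14, and skeletal muscle markers reached 270.2 and 913 CPM in mice 1 and 2 against 10.3 CPM in mouse 3. Their part in the collagen values was not tested. Collagen counts per count of the fibroblast markers were 2.57 to 2.90 in NZB and 2.45 to 3.29 in C57 non-lactating mice, and 3.73 to 6.68 in the lactating mice of both genotypes, so the summed collagens were lower in lactation by a smaller factor than these markers.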

How the data were processed

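Polyadenylated RNA from inguinal mammary glands of 24 mice (8 groups of 3) was measured by sequencing. The deposited table gives log10 of CPM plus 1 for 32544 symbols in 48 columns, 2 per mouse, as read from the values. Per the submitters' processing notes the builds were GRCm38 and mm10, while no source used here names the aligner or the counter. Whole reads came back in at least 99.99% of values of every column (tolerance 0.05). The 27 symbols turned into dates were kept in the totals and not tested.

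The 2 columns of a mouse were averaged in CPM and the remaining genes were rescaled after removal of 17 milk protein genes. Genes above 1 CPM in at least 3 mice on the deposited scale, before rescaling, were tested on log2(CPM + 1) with limma 3.58.1 (R 4.3.3, variance trend, 2-sided, the compared groups alone) in 14 comparisons, with Benjamini-Hochberg adjustment over all genes of a comparison and a threshold of 0.05. Since milk counts press the other genes down in lactating glands on the deposited scale, that filter favours genes high in non-lactating glands (43 chains would pass on rescaled levels). A fold change on this scale understates that of low genes. Figures and summaries used Python 3.11.15 with numpy 2.4.6, pandas 2.3.3 and matplotlib 3.10.9. The members and lists were chosen with earlier results of these data known. All chains could be named, and from each other list up to 4 genes with the smallest adjusted p and called genes that went the other way. Count tools had been planned; as the deposited unit is a log, TMM factors and limma voom on recovered reads replaced them after the data had been seen. The numbers of mice did not pair them: in 0 of 28 pairs of groups was every correlation of same-numbered mice over 0.1, although mice 1 and 2 of C57 day 14 and day 21 gave 0.48 and 0.41. The tests were checked on simulated data.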

Additional observations from a re-analysis of the deposited data

Results flagged for a closer look

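The test of the difference between the genotypes' changes at day 21 against day 14 picked out 5 collagen chains. The change in NZB glands exceeded that in C57 glands by 1.67 (log2) for Col12a1, which coats type I fibrils, by 1.46 for Col1a2, by 1.72 for Col5a2 and by 1.77 for Col4a5, and it lay below it by a difference of -3.30 for Col9a1. With TMM scaling 2 of the 5 were called and with no filter on low values 1. C57 day 14 and day 21 glands, which enter each of these differences, hold the 2 pairs of libraries that were more alike than most mice of 1 group. The milk protein share moved with the same contrast, at 24.62% of counts in NZB day 21 glands against 71.76% in NZB day 14 glands, and at 70.39% in C57 day 21 glands against 70.48% in C57 day 14 glands. Its part in the differences was not tested.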

How the results depend on the processing

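On the deposited CPM scale, where milk protein genes count in the total, the median of all genes moved to -1.80 (log2) at day 8 in NZB and -1.81 in C57 glands and to 1.36 for NZB day 21 against day 14. Calls against non-lactating glands then came to 38 and 37 chains in NZB (days 8 and 14) and 41, 41 and 41 in C57 glands (days 8, 14 and 21), those of NZB day 21 against NZB day 14 to 36, of NZB against C57 day 21 to 35 and of the day 21 interaction to 30. The share of all genes called under this or the other settings below is not given, so these counts are not read as results about collagens. Summed shares fell to 0.0347% and 0.0445% (NZB days 8 and 14) and 0.0365%, 0.0455% and 0.0415% (C57 days 8, 14 and 21), and with 8 milk genes left out to 0.117% (NZB day 8), 0.129% (C57 day 8) and 0.120% (C57 day 21). Col17a1 reversed in C57 glands at day 8 on the deposited scale (-1.64). TMM gave 9, 4, 9 and 2 calls, and no filter 3, 2, 3 and 1, for NZB day 21 against non-lactating, against day 14, against C57 day 21 and for the day 21 interaction. NZB day 21 against day 14 had 18 calls with 8 milk genes left out and 6 with voom. The fit of all 24 mice gave 4 calls between non-lactating glands and 1 for the day 8 interaction, and leaving out NZB non-lactating mice 2 and 3, with their B cell markers, gave 2 between non-lactating glands. More symbols tested (no filter) or another centring (TMM, deposited scale) are part of these settings, and other causes were not tested.

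Leaving out 1 mouse gave 18 to 25, 18 to 27 and 4 to 21 calls in NZB glands at days 8, 14 and 21 against non-lactating, and 25 to 27, 19 to 24 and 19 to 25 in C57 glands. It gave 3 to 9 for NZB day 21 against day 14, 7 to 15 for NZB against C57 day 21, 1 to 8 for the day 21 interaction and 0 to 2 for that of day 8. With the replicate number as a block (the check of pairing found no pair of groups alike in all 3 numbers, though mice 1 and 2 of C57 day 14 and day 21 were alike), calls were 23, 21 and 14 in NZB and 24, 21 and 22 in C57 glands against non-lactating, 10 for NZB day 21 against day 14, 15 between genotypes at day 21 and 7 for the day 21 interaction. Depth limits the chains near 1 CPM most.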
